A study of Mus musculus with 8 samples.

Results

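Markers of the 2-cell state, 10 genes in all, were followed across 4 genotypes of mouse embryonic stem cells. The 10 were taken from the count table by their Ensembl identifiers, out of 47643 genes. Arg2, Tmem92, Ubtfl1 and Zfp352 are the 4 listed as unique sequence, and Tcstv3, Tdpoz4, B020004J07Rik, Gm8300, BC080695 and AF067061 are the 6 listed as members of repeated families. The counts of members called are a description only, since the members were chosen with earlier results of these data known. Tdpoz4 and B020004J07Rik also passed the filter on low counts through Ago1_2 KO alone. Against wild type, all 10 rose in Ago1_2 KO, where 17.6% of all genes tested were called, and 9 rose in Drosha KO, where 11.4% were called. In the libraries labelled Dgcr8 KO 3 rose, where 6.93% were called, and none of these 3 was called when 1 of 3 libraries (WT 2 or either one labelled Dgcr8 KO) was left out.

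The cells were E14 embryonic stem cells of the 129/Ola strain background, a line from the mouse blastocyst. They were wild type (WT), or carried a label of knockout (KO) for Dgcr8, for Drosha, or for the pair Ago1 and Ago2 (Ago1_2 KO). Each genotype gave 2 libraries of polyadenylated RNA. All 4 genotypes, WT included, had been kept for at least 2 weeks in 2i, a serum-free N2B27 medium with LIF and with the inhibitors CHIR99021 (of GSK3) and PD0325901 (of MEK). Nothing in the labels tells if both libraries of a genotype go back to separate cultures or to different clones, so the p-values measure only the spread between these samples. A bulk library holds RNA of all its cells together, so more cells in a state and more RNA per cell cannot be told apart.

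In the mouse embryo the first large wave of transcription from the embryo's own genome comes at the 2-cell stage. A small share of cultured embryonic stem cells passes through a state in which many of the same genes are on, together with MERVL retroelements, and the transcription factor DUX can switch that state on. The Microprocessor, made of DROSHA and DGCR8, releases microRNA hairpins from primary transcripts, and AGO1 and AGO2 bind the finished microRNAs and repress their targets.

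The difference between unique and repeated members can be seen in their letters. BC080695 and its closest relative, Gm13040, are shown because BC080695 is the repeated member that shares most sequence. Zfp352 is shown with Zfp353-ps because it is the unique member that shares most sequence. The stretches are 120 aligned bases near the start of the coding sequence of each pair (bases 1 to 120 of BC080695 and bases 7 to 126 of Zfp352), from the GENCODE M21 annotation of GRCm38. Capitals mark the bases at which a pair differs.
BC080695: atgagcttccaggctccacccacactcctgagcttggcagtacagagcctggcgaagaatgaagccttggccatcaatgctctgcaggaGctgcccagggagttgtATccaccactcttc
Gm13040: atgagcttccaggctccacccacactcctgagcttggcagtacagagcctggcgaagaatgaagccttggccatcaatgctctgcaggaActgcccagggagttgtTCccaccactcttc
Zfp352: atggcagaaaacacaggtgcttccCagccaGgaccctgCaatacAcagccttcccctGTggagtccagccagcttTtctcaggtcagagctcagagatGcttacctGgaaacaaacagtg
Zfp353-ps: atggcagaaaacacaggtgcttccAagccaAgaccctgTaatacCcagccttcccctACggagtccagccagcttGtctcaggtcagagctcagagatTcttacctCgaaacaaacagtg
The BC080695 stretch differed from Gm13040 at 3 of 120 bases (97.5% identity), and the Zfp352 stretch differed from Zfp353-ps at 9 (92.5%). A read from the first pair may therefore lie wholly between differing bases and match both genes.

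Over the whole transcripts, the annotated exons of every member were searched for 50-base windows that also occur, letter for letter, in another annotated gene. Counting matches on the same strand only, the share was 0.0% for Arg2, 1.9% for Tmem92, 3.3% for Ubtfl1 and 7.1% for Zfp352. Among the repeated members it was 13.4% for B020004J07Rik, 23.4% for AF067061, 26.6% for Gm8300, 31.4% for Tcstv3, 41.2% for Tdpoz4 and 55.3% for BC080695. All 4 unique members thus lay below all 6 repeated ones on this same-strand measure. On the opposite strand, 21.2% of the Arg2 windows matched another gene, against at most 3.1% in any other member. The handling of strand in the counting is not given, so the split of the sets holds for same-strand matches only. Unique sequence does not mean that a gene has no relatives. The coding sequence of Zfp352 aligned to Zfp353-ps at 95.1% identity over 99.6% of its length, and that of Ubtfl1 to Gm19170 at 86.9% over 93.3%. That of Tmem92 aligned to A430060F13Rik at 90.2% over 48.4%. B020004J07Rik, a repeated member, had its closest relative, Gm12800, at 81.2% identity, below Zfp352 and Ubtfl1. The sets were thus apart by windows shared on the same strand but not by this identity. Arg2 had no alignment above 68.5% identity, which was to Arg1 over 51.8% of its coding sequence. A pair of the repeated members are relatives of each other, as Tcstv3 and AF067061 share 95.9% of bases over the whole coding sequence of Tcstv3. No source used here says how reads that match several genes were counted, so the values of the 6 repeated members are uncertain to that extent and are not independent of those of their relatives.

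**Figure D1:**
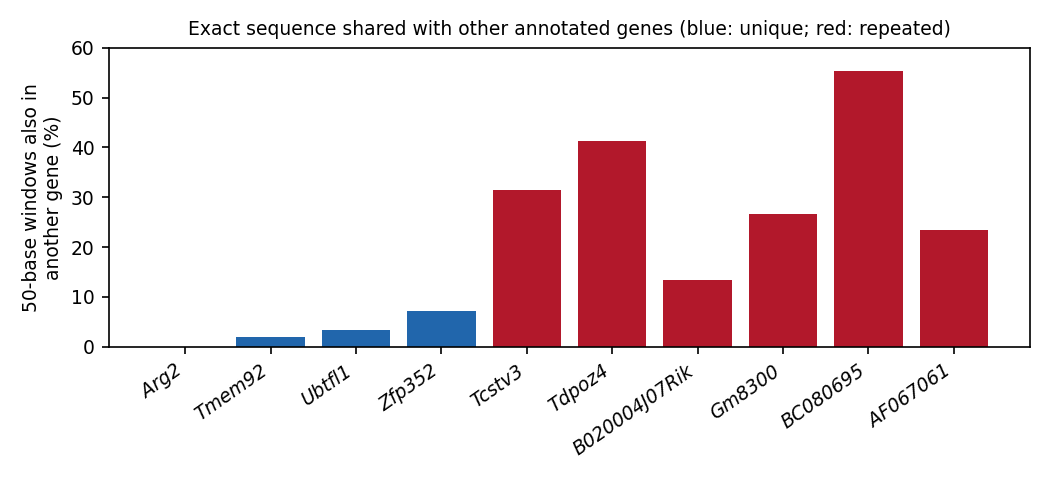
Share of each member's 50-base exon windows (y axis, %) that also occur on the same strand in another annotated gene of GENCODE M21. Bars start from 0, with unique members in blue and repeated members in red. Matches on the opposite strand (21.2% for Arg2) are not drawn. The 4 blue bars reach at most 7.1% and the 6 red bars at least 13.4%.

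The libraries held 13229771 to 26333907 counts. The sum over 10 markers of naive embryonic stem cells, among them Pou5f1, Nanog and Klf4, was 4950 to 5970 CPM (counts scaled to library size), and none of the 10 was called in any of the 6 comparisons between genotypes. Drosha mRNA was lower in Drosha KO (log2 fold change -2.02, SE 0.24, adjusted p = 0.00196, edgeR's quasi-likelihood test). Dgcr8 mRNA went the other way and was higher in the libraries labelled Dgcr8 KO, at 392 and 370 CPM against 78.1 and 70.5 in WT. It stood at 304 and 234 CPM in Drosha KO and at 91.2 and 82.9 CPM in Ago1_2 KO. In the libraries labelled Ago1_2 KO neither Ago1 (160 and 87.8 CPM against 106 and 63.3 in WT) nor Ago2 (216 and 195 CPM against 464 and 227) was called. Counts per gene do not show which exons were deleted, so genotype names below are those of the labels.

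Among the unique members, Tmem92, which encodes a predicted membrane protein, had the most counts. Its level was 0.564 and 0.58 CPM in WT, with Dgcr8 KO at 3.48 and 4.07, Drosha KO at 10.5 and 12.6 and Ago1_2 KO at 20.7 and 51.9. The 4 genotypes did not overlap. Arg2, the mitochondrial arginase that splits arginine into ornithine and urea, had 0.226 and 0.193 CPM in WT, with Dgcr8 KO at 0.739 and 0.635, Drosha KO at 1.48 and 2.13 and Ago1_2 KO at 2.75 and 7.56. Here too no library of one genotype lay within the range of another. Ubtfl1 encodes an HMG-box protein of preimplantation embryos related to the ribosomal DNA transcription factor UBTF. It had 0.113 and 0.29 CPM in WT, with Dgcr8 KO at 0.106 and 0.508, Drosha KO at 1.53 and 1.4 and Ago1_2 KO at 2.63 and 4.71. For this gene WT and Dgcr8 KO overlapped, and both lay below Drosha KO and Ago1_2 KO. Zfp352, a zinc finger gene of the early embryo, had 0 and 0.0967 CPM in WT, with Dgcr8 KO at 0.211 and 0.318, Drosha KO at 2.16 and 1.24 and Ago1_2 KO at 2.59 and 3.97. The genotypes did not overlap, but the WT values rest on 0 and 2 counts.

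Gm8300, which encodes a protein like the translation initiation factor EIF1A, was the repeated member with most counts. It had 0.847 and 0.822 CPM in WT, with Dgcr8 KO at 3.85 and 4.38, Drosha KO at 14.1 and 6.47 and Ago1_2 KO at 36.8 and 62.1, and the genotypes did not overlap. BC080695 was without a count in either WT library. It had 0.369 and 0.445 CPM in Dgcr8 KO, with Drosha KO at 0.908 and 1.67 and Ago1_2 KO at 5.53 and 10.1, again with no overlap. AF067061 had 0 and 0.0967 CPM in WT, with Dgcr8 KO at 0.475 and 0.508, Drosha KO at 2.55 and 1.24 and Ago1_2 KO at 8.08 and 9.13. Its relative Tcstv3 is named for variable expression at the 2-cell stage. Tcstv3 had 0.113 and 0.0484 CPM in WT, with Dgcr8 KO at 0.211 and 0.254, Drosha KO at 1.53 and 0.775 and Ago1_2 KO at 3.7 and 5.76. Tdpoz4, of a family of proteins with TRAF and POZ domains, had 0 and 0.145 CPM in WT, with Dgcr8 KO at 0.317 and 0.191, Drosha KO at 2.33 and 0.465 and Ago1_2 KO at 3.06 and 7.86. Its Drosha KO libraries lay 5 times apart on 41 and 12 counts. B020004J07Rik was the lowest of the 10 in Ago1_2 KO in CPM, at 1.27 and 2.1, after 0 and 0.0967 in WT. Its Dgcr8 KO libraries, at 0.158 and 0.254 CPM, overlapped its Drosha KO libraries, at 0.227 and 0.388 CPM.

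**Figure D2:**
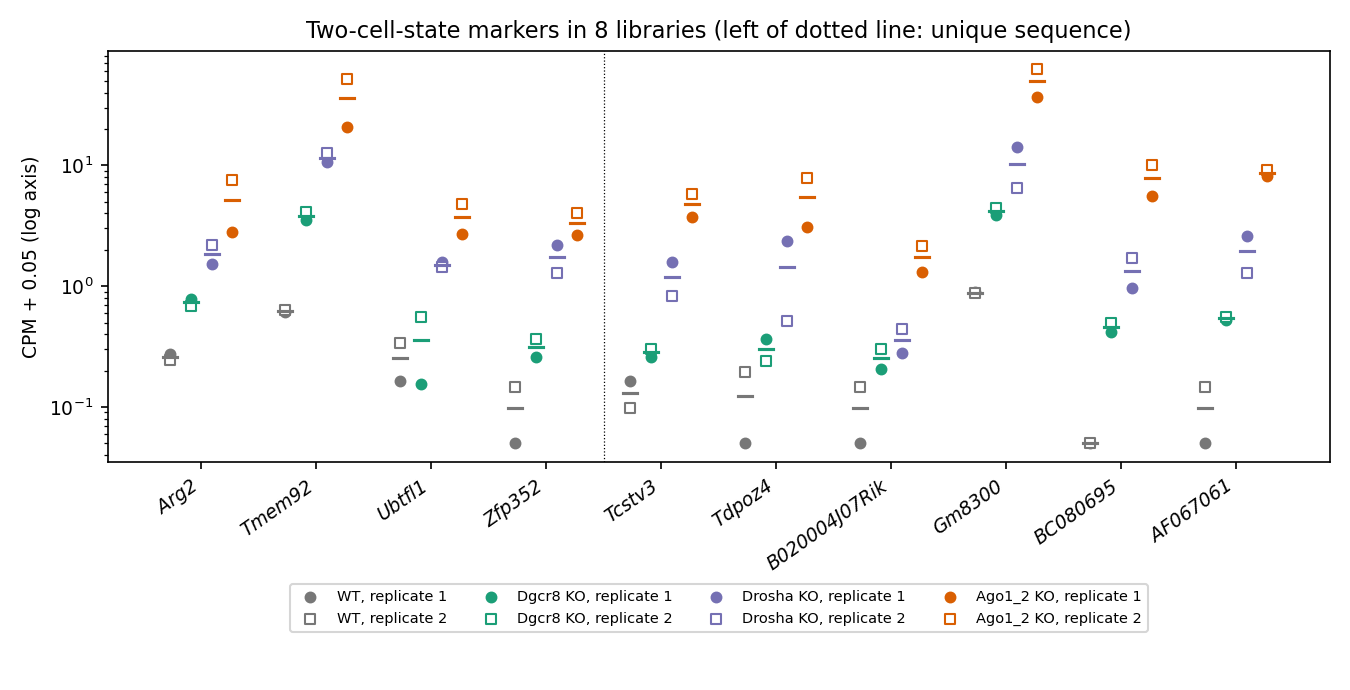
CPM + 0.05 on a log axis for each of the 10 members, with one symbol per library (circles for replicate 1, open squares for replicate 2) and short bars at the mean of the 2 libraries. Values of 0 CPM lie at 0.05. In each member the mean climbs from WT (grey) over Dgcr8 KO (green) and Drosha KO (purple) to Ago1_2 KO (orange).

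All 10 genes passed the filter on low counts, but by different groups. Gm8300 was the only member that passed through WT, and Tdpoz4 and B020004J07Rik passed through Ago1_2 KO alone. In all, 6 members had 3 counts or fewer in both WT libraries together, so fold changes against WT are given for these as ratios of summed counts, scaled to library size, with an exact 95% interval, which covers counting error only. The order of the group means, WT below Dgcr8 KO below Drosha KO below Ago1_2 KO, was found in each of the 10 members and in 7.48% of the 16388 genes tested. This order is a description only, since the members were chosen with earlier results known and the filter let Tdpoz4 and B020004J07Rik through by their Ago1_2 KO counts. The same holds for each count of members set beside a share of all genes below. Per kilobase of exon, the levels in Ago1_2 KO ran from 0.828 CPM for Ubtfl1 and 0.852 for B020004J07Rik, over 1.44 for Zfp352 and 3.61 for Arg2, to 16.6 for Tmem92 and 26.4 for Gm8300. Tcstv3 and AF067061 stood at 6.07 and 6.13 CPM per kilobase, less apart than their own libraries.

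WT was the reference for the libraries labelled Dgcr8 KO, a comparison made for the RNA-binding subunit of the Microprocessor, although Dgcr8 mRNA was higher in them. Tmem92, Gm8300 and BC080695 rose, 3 of 10 members, and none fell, where 6.93% of all genes tested were called and 2.45% were called higher. Tmem92 was higher by a log2 fold change of 2.70 (SE 0.50, adjusted p = 0.0179, edgeR's quasi-likelihood test as throughout) and Gm8300 by 2.29 (SE 0.47, adjusted p = 0.0251). BC080695 rose from 0 to 14 counts (adjusted p = 0.0354), at least 5.16-fold against a floor of 3 counts over the WT group. Both Dgcr8 KO libraries lay above both WT libraries in 9 members, against 30.7% of all genes, the exception being Ubtfl1. Some of the 9 rest on few counts, and Tdpoz4 had 3 counts in both Dgcr8 KO 2 and WT 2. The ratio was 2.95 for Tcstv3 (95% interval 0.708 to 17.3) and 3.32 for Tdpoz4 (0.829 to 19.1). For B020004J07Rik it was 3.87 (0.738 to 38.2), and all of these intervals hold 1. AF067061 had a ratio of 9.41 (95% interval 2.23 to 83.9, adjusted p = 0.0643) and Arg2 a log2 fold change of 1.69 (SE 0.71, adjusted p = 0.145). The median log2 fold change was 2.03 over the 10 members and -0.03 over all genes tested. All 3 calls were lost when WT 2, Dgcr8 KO 1 or Dgcr8 KO 2 was left out, with adjusted p from 0.0872 to 0.193 and log2 fold changes of 2.19 to 2.82 for Tmem92 and Gm8300. BC080695 was also lost without either Ago1_2 KO library, at adjusted p of 0.0536 and 0.0539. Limma-voom and a fit with a GC offset each called 1 of the 10.

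Drosha KO was compared with WT for the nuclease subunit of the Microprocessor. Of the 10 members, 9 rose and none fell, all 4 unique ones among them, where 11.4% of genes were called and 6.54% were called higher. Tmem92 rose by a log2 fold change of 4.32 (SE 0.49, adjusted p = 0.00169) and Gm8300 by 3.61 (SE 0.46, adjusted p = 0.00277), the members with the most counts. Arg2 rose by 3.08 (SE 0.66, adjusted p = 0.019) and Ubtfl1 by 2.79 (SE 0.72, adjusted p = 0.0358). The ratio for Zfp352 was 30.9 (95% interval 8.25 to 261, adjusted p = 0.00815) and for AF067061 34.0 (9.11 to 286, adjusted p = 0.00594). For Tcstv3 the ratio was 13.9 (4.46 to 69.6) and for Tdpoz4 15.6 (5.06 to 78.1), with adjusted p of 0.0127 and 0.0494. BC080695 was at least 17.4-fold higher than the WT floor, on 16 and 43 counts. B020004J07Rik did not pass, with a ratio of 6.19 (1.42 to 56.1, adjusted p = 0.125) on 14 counts in Drosha KO and 2 in WT. In all 10 members both Drosha KO libraries lay above both WT libraries, against 25.1% of all genes. The median was 3.88 on the log2 scale, against -0.02 over all genes. Tdpoz4 was lost in 7 and Ubtfl1 in 6 of the 8 fits that leave out 1 library. Without Drosha KO 1 the log2 fold change of Tdpoz4 was 2.49 (adjusted p = 0.254), that of Gm8300 2.95 and that of AF067061 4.42, and without Drosha KO 2 that of Tdpoz4 was 4.80. BC080695 was still called without Drosha KO 2 (adjusted p = 0.0132), with a fitted log2 fold change of 7.08 in place of 7.67, neither of which is a bound. Without WT 1 the values for Zfp352, Tcstv3, Tdpoz4 and AF067061 were 4.05, 4.40, 3.18 and 4.21. Without WT 2, Arg2, Ubtfl1, Tcstv3 and Tdpoz4 were lost, at adjusted p of 0.0857, 0.0744, 0.0647 and 0.0947, which left 5 members called. Zfp352, Tdpoz4 and AF067061 have no WT count then, so their fitted values are no measure of size, and that of Ubtfl1 was 3.64.

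The libraries labelled Ago1_2 KO were compared with WT for the proteins that carry microRNAs, although neither Ago1 nor Ago2 mRNA was called lower in them. All 10 members rose, where 17.6% of genes were called and 10.2% were called higher. Tmem92 rose by a log2 fold change of 5.96 (SE 0.51, adjusted p = 0.000334) and Gm8300 by 5.88 (SE 0.48, adjusted p = 0.000294), with ratios of summed counts of 54.9 and 54.7. Arg2 rose by 4.56 (SE 0.65, adjusted p = 0.00273) and Ubtfl1, with the smallest change of the 10, by 4.10 (SE 0.71, adjusted p = 0.00627). The ratio was 58.8 for Zfp352 (95% interval 15.9 to 492), 56.5 for Tcstv3 (19.0 to 277) and 60.5 for Tdpoz4 (20.4 to 296). These 3 ratios cannot be told apart by their counting intervals. AF067061 went from 2 to 325 counts, a ratio of 162 (44.5 to 1340), and BC080695 from 0 to 274, at least 91.1-fold. B020004J07Rik had a ratio of 29.9 (7.93 to 253, adjusted p = 0.00659). Both Ago1_2 KO libraries lay above both WT libraries in all 10, against 30.5% of genes, and the median log2 fold change was 5.84 against -0.02. All calls held in 7 of the 8 fits that leave out 1 library. Without Ago1_2 KO 2, B020004J07Rik was lost (adjusted p = 0.0543), and the log2 fold changes of Arg2, Tmem92 and Tdpoz4 came to 3.68, 5.16 and 5.21. The 3 comparisons against WT share the same 2 WT libraries, and members with 1 to 3 WT counts turn on them: without WT 1 the Ago1_2 KO log2 fold changes of Zfp352, Tcstv3, Tdpoz4, B020004J07Rik and AF067061 were 5.01, 6.46, 5.19, 4.04 and 6.41. Without WT 2 that of Ubtfl1 was 4.95, and Zfp352, Tdpoz4, B020004J07Rik and AF067061 had no WT count left.

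The knockouts were then compared with each other, which leaves the near-empty WT libraries out of the contrast. Against Dgcr8 KO, all 10 members rose in Ago1_2 KO, where 17.1% of genes were called and 11.6% were called higher, with log2 fold changes from 2.87 for Arg2 to 4.36 for Tdpoz4. The largest of the unique members was Zfp352 (3.6, SE 0.65, adjusted p = 0.00638). Gm8300 rose by 3.58 (SE 0.42, adjusted p = 0.000978). All 10 lay higher in both Ago1_2 KO libraries than in both Dgcr8 KO libraries, against 36.2% of genes. Arg2, Zfp352, Tdpoz4 and B020004J07Rik were not called without Dgcr8 KO 1, without Dgcr8 KO 2 or without Ago1_2 KO 2, and Ubtfl1 was not called without Dgcr8 KO 1 or Ago1_2 KO 2, with adjusted p between 0.0502 and 0.186. That left 5, 6 and 5 members called, and 9 were called without Ago1_2 KO 1 (B020004J07Rik lost, adjusted p = 0.0584). The log2 fold change of Ubtfl1 was 2.82 without Dgcr8 KO 1 and 5.03 without Dgcr8 KO 2, and without Ago1_2 KO 2 those of Arg2, Tmem92 and Tdpoz4 were 1.99, 2.46 and 3.55.

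Drosha KO differed from Dgcr8 KO in 4 members, where 15.4% of genes were called and 9.67% were called higher. Zfp352 rose by a log2 fold change of 2.66 (SE 0.66, adjusted p = 0.026), Tcstv3 by 2.26 (SE 0.61, adjusted p = 0.0355), AF067061 by 1.92 (SE 0.57, adjusted p = 0.0491) and Tmem92 by 1.61 (SE 0.41, adjusted p = 0.0281). Ubtfl1 (2.28, SE 0.69, adjusted p = 0.0531) and Gm8300 (1.31, SE 0.40, adjusted p = 0.0515) lay just outside the threshold. Both Drosha KO libraries lay above both Dgcr8 KO libraries in 9 members, against 32.4% of genes, the exception being B020004J07Rik at 0.62 (SE 0.79, adjusted p = 0.629). None of the 4 calls held without either Dgcr8 KO library (adjusted p 0.136 to 0.264). Without Drosha KO 1, Tmem92 alone was called and AF067061 stood at 1.33 (adjusted p = 0.15), and without Drosha KO 2 Tmem92 was lost (adjusted p = 0.0908) while 5 members were called. Without either Ago1_2 KO library Tcstv3 and AF067061 were lost, which left 2. DESeq2 called 7 of the 10 in place of 4, limma-voom called 2, and the test without a filter on low counts 8.

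Ago1_2 KO lay above Drosha KO in both libraries for all 10 members, against 20.5% of genes, but Gm8300 was the only one called (log2 fold change 2.27, SE 0.39, adjusted p = 0.0347), where 0.732% of genes were called and 0.409% were called higher. The other 9 had adjusted p from 0.0641 for BC080695 (2.57, SE 0.50) to 0.658 for Zfp352 (0.95, SE 0.53). Gm8300 itself was not called without Dgcr8 KO 1, Dgcr8 KO 2, Drosha KO 2, Ago1_2 KO 1 or Ago1_2 KO 2, with adjusted p of 0.0695, 0.0701, 0.0898, 0.0732 and 0.317. Without Drosha KO 1 its log2 fold change was 2.93. DESeq2 called 4 of the 10 in place of 1, limma-voom 3 and the test without a filter 7, while a fit of only the libraries compared called 0.

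**Figure D3:**
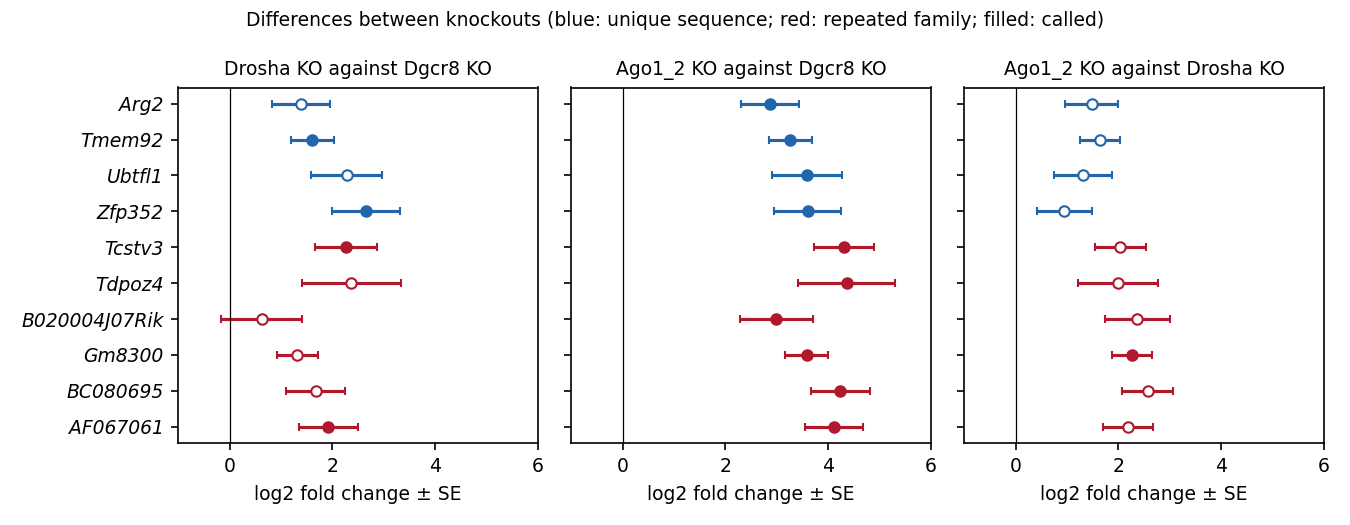
Log2 fold changes with SE (x axis) of the 10 members in the 3 comparisons between knockouts, unique members in blue and repeated members in red. Filled points passed an adjusted p under 0.05. In the right panel the 4 blue points lie between 0.95 and 1.65 and the 6 red points between 1.99 and 2.57.

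Unique and repeated members were set side by side in each comparison. Against WT the median log2 fold change was 1.94 for unique and 2.07 for repeated members in Dgcr8 KO. It was 3.70 for unique and 3.88 for repeated members in Drosha KO, and 5.18 for unique and 5.94 for repeated members in Ago1_2 KO. Between knockouts it was 1.94 for unique and 1.80 for repeated members in Drosha KO against Dgcr8 KO, and 3.42 and 4.18 in Ago1_2 KO against Dgcr8 KO. The ranges of the unique and repeated members overlapped in those 5 comparisons. In Ago1_2 KO against Drosha KO they did not: the 4 unique members lay between 0.95 (Zfp352) and 1.65 (Tmem92), and the 6 repeated ones between 1.99 (Tdpoz4) and 2.57 (BC080695), with medians of 1.40 and 2.23. The values of the members are not independent, as the relatives Tcstv3 and AF067061 show, and the difference between the sets was not tested. The SEs of the single members were 0.39 to 0.78. Of the 4 fits that leave out 1 of the libraries compared, 3 kept the ranges apart. They overlapped without Drosha KO 2, where unique members ran from 0.60 to 1.79 and repeated ones from 1.22 to 3.09.

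The 2 libraries of each knockout were compared member by member. Ago1_2 KO 2 lay above Ago1_2 KO 1 in 10 of 10 members (52.0% of all genes) and by over 1.5 times in 9 of 10 (8.40% of all genes). The ratio of library 2 to library 1 was 2.75 for Arg2 (exact 95% counting interval 2.01 to 3.79), 2.51 for Tmem92 (2.24 to 2.82) and 2.56 for Tdpoz4 (1.89 to 3.49), but 1.13 for AF067061 (0.895 to 1.42). The interval lay above 1 for 8 members. It covers counting error only, and the share of all genes with such an interval was not computed for any knockout. In Drosha KO it went in both directions: library 1 was above library 2 for Zfp352, Tcstv3, Tdpoz4, Gm8300 and AF067061, BC080695 was the reverse at 1.84 (1.01 to 3.49), and 4 intervals held 1. In Dgcr8 KO all 10 intervals held 1, but most were wide on few counts. For Ubtfl1 the ratio was 4.82 (0.961 to 46.6) on 2 and 8 counts. Over all genes tested, library 2 was the higher one in 49.3% in Dgcr8 KO, 51.1% in Drosha KO and 51.5% in WT. Summed over the 10 members, the level was 1.86 and 2.37 CPM in WT, with Dgcr8 KO at 9.92 and 11.6, Drosha KO at 37.3 and 28.3 and Ago1_2 KO at 87.1 and 165.

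**Figure D4:**
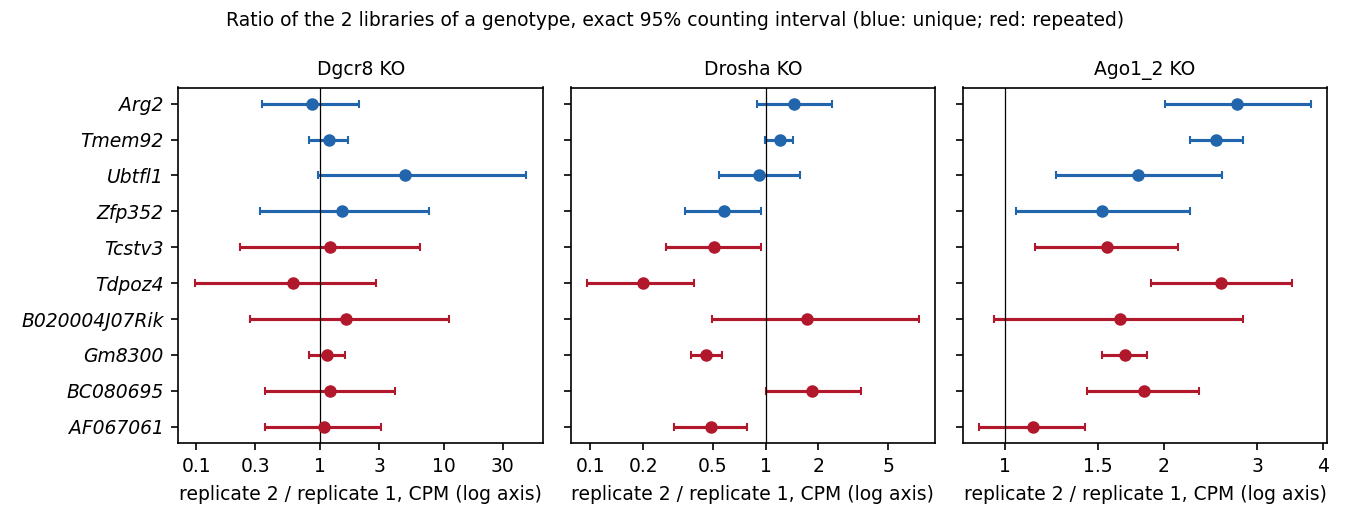
Ratio of library 2 to library 1 in CPM (x axis, log scale, with its own range in each panel) for each member in each knockout, with the exact 95% counting interval; unique members are blue and repeated members red. All 10 points lie above 1 in Ago1_2 KO, all 10 intervals hold 1 in Dgcr8 KO, and Drosha KO has points on both sides.

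Markers of other cell types were summed in the same libraries. For 8 fibroblast markers the sum was 11.8 to 14.2 CPM in WT and 11.5 to 16 in Ago1_2 KO. Postn had 4 counts in Ago1_2 KO 1 and 0 in the other 7 libraries. Lum had 2 counts in WT 2, 5 in Dgcr8 KO 1 and 0 in the others. Of the 3 fibroblast markers tested, Thy1 and Col1a1 were called higher in Ago1_2 KO against WT, with log2 fold changes of 1.90 and 2.23. The third, Pdgfrb, was not called and went the other way, at 5.77 and 7.11 CPM in Ago1_2 KO against 11.8 and 9.53 in WT. Col1a2, Col3a1 and Dcn were not tested and had 0 to 5 counts in each library. For 6 oocyte markers, a cell type that shares genes with the 2-cell embryo, the sum was 1.41 and 2.23 CPM in WT and 3.26 and 4.49 in Ago1_2 KO, with Oosp1 at 0 counts in every library. Most of that sum was Zp3, at 1.02 and 2.03 CPM in WT and 2.94 and 3.97 in Ago1_2 KO. Zp3 was the only oocyte marker tested, and it was not called in any knockout against WT. The 7 primitive endoderm markers summed to 3.72 to 9.96 CPM and 7 trophectoderm markers to 50.1 to 114 CPM over the 8 libraries. Gata4, of the endoderm list, was called higher in Drosha KO against WT (1.56). Pdgfra, the other endoderm marker tested, was not called there, at 1.13 and 0.62 CPM in Drosha KO against 1.3 and 0.435 in WT. Of the trophectoderm list, Eomes was called lower in Drosha KO (-1.88) and Ago1_2 KO (-1.62), and Krt18 was called lower in Dgcr8 KO (-2.53) and Ago1_2 KO (-1.96), each against WT. Counts of Cdx2 were 1 and 15 in WT, with Dgcr8 KO at 50 and 41, Drosha KO at 2 and 0, and Ago1_2 KO at 0 in both. The part of such cells in the results was not tested.

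Other genes of the 2-cell state were taken from a list of 44, of which 36 were in the table and 26 were tested. Against WT, 11 of the 26 rose in Dgcr8 KO, 21 rose in Drosha KO, 25 rose in Ago1_2 KO, and none fell, where 2.45%, 6.54% and 10.2% of all genes were called higher. Their medians were 2.32, 3.98 and 6.32 on the log2 scale, beside 2.03, 3.88 and 5.84 for the 10 members. These counts and medians are a description only, since this list too was chosen with earlier results known. Some of its genes, such as Spz1 and BC147527 (means of 0.0242 and 0.0282 CPM in WT), passed the filter through knockout libraries and not WT. Some are also sequence relatives of members, so their values are not independent of those of the members. Between knockouts, 15 were higher in Drosha KO than in Dgcr8 KO, 24 in Ago1_2 KO than in Dgcr8 KO, and 12 when Ago1_2 KO was compared with Drosha KO, where 9.67%, 11.6% and 0.409% of all genes were called higher. Among the best supported in the last comparison was Zscan4f, a zinc finger gene tied to telomere upkeep (log2 fold change 2.67, SE 0.36, adjusted p = 0.0153). Usp17le, a deubiquitinase gene, rose by 2.96 (SE 0.40, adjusted p = 0.0153). Gm21761, the closest relative of AF067061 in sequence, rose by 6.42 in Ago1_2 KO against WT (SE 0.41, adjusted p = 0.000177) and by 2.32 in Dgcr8 KO (SE 0.38, adjusted p = 0.0117).

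Of 21 listed regulators of the 2-cell state, 20 were tested. Duxf3, the gene of DUX, which lies in a tandem repeat, rose in Drosha KO (ratio 26.5, exact 95% interval 4.41 to 1080, adjusted p = 0.0189) and in Ago1_2 KO (144, 25.4 to 5710, adjusted p = 0.00144). In Dgcr8 KO its ratio was 5.53 (0.619 to 262, adjusted p = 0.242), and its rise from Dgcr8 KO to Ago1_2 KO was a log2 fold change of 4.80 (SE 0.68, adjusted p = 0.00238). Duxf3 thus stood in the order of genotypes that the 10 members showed. Dppa2, an activator of Dux, had 45.2 and 37.5 CPM in WT, with Dgcr8 KO at 74.5 and 89.2, Drosha KO at 154 and 87.2 and Ago1_2 KO at 132 and 210. It rose in Drosha KO (1.54, SE 0.31, adjusted p = 0.0152) and in Ago1_2 KO (2.05, SE 0.31, adjusted p = 0.00368), and Nelfa, another activator, rose in Ago1_2 KO (1.09, SE 0.26, adjusted p = 0.0231). Lin28a, an RNA-binding protein gene, rose in Dgcr8 KO (1.51) and fell in Drosha KO (-5.41) and Ago1_2 KO (-4.24), the one regulator called in both directions against WT. The rest of the 20 were not called in any comparison with WT.

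Close relatives of Arg2, Ubtfl1 and Zfp352 were looked at. Arg1, the liver arginase, had 0 or 1 count in every library. Ubtf, the parent of the Ubtfl1 family, lay between 259 and 387 CPM in all 8 libraries. Zfp353-ps, the relative of Zfp352 shown above, had 9 and 8 counts in Ago1_2 KO, beside 65 and 53 of Zfp352, and 0 to 2 counts in each of the other 6 libraries. It was thus highest in the same genotype as Zfp352, and it did not pass the filter on low counts.

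Neighbouring genes were examined for the 4 unique members, which lie on 4 chromosomes: Arg2 on chromosome 12 (79130777 to 79156301), Tmem92 on 11 (94777217 to 94782703), Ubtfl1 on 9 (18404418 to 18413177) and Zfp352 on 4 (90218820 to 90225702), in GRCm38. On both sides of Tmem92 predicted genes rose in Ago1_2 KO. Gm11546, 14.3 kb away, rose by 6.28 on the log2 scale there (SE 0.71, adjusted p = 0.00115) and by 4.42 in Drosha KO (SE 0.72, adjusted p = 0.00698). Gm11545, 19.5 kb away, rose by 2.75 in Ago1_2 KO (SE 0.73, adjusted p = 0.0316) and was not called in Drosha KO (2.04, SE 0.73, adjusted p = 0.0977). Neither was called in Dgcr8 KO, where Gm11546 stood at 2.88 (adjusted p = 0.0559) and Gm11545 at 0.54 (adjusted p = 0.673). Naalad2 and Zfp558 beside Ubtfl1, and Cdkn2b and Elavl2 on either side of Zfp352, were not called in any knockout against WT. Pigh, 41.1 kb from Arg2, was called lower in Ago1_2 KO (-0.71, SE 0.21, adjusted p = 0.0467). Vti1b lies on the other strand and overlaps the end of Arg2. In all, 21.2% of the Arg2 windows matched some gene on the other strand, Vti1b more than any other. Vti1b was not called and was lower in both libraries of Drosha KO and Ago1_2 KO (-0.49 and -0.48), the opposite direction to Arg2.

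For each unique member the 5 genes with the most similar profile over the 8 libraries were named by Pearson's r of log2 CPM. Points share genotype and library, so r is a description only. Tmem92 was most like Gm6189 (r = 0.995) and Usp17lc (0.992), a deubiquitinase gene of the 2-cell list. Arg2 was most like Gm11543 (0.993), Zfp352 like Apol7b (0.995) and Lgals3, the galectin 3 gene (0.991), and Ubtfl1 like Rarb (0.992), a retinoic acid receptor gene, and Grm2 (0.988). Lgals3 stood at 2.31 and 6.53 CPM in WT, with Dgcr8 KO at 8.13 and 8.96, Drosha KO at 85.6 and 30.9 and Ago1_2 KO at 72.0 and 106. Like Zfp352, it was higher in Drosha KO 1 than in Drosha KO 2. Between the members themselves r ran from 0.888 (Zfp352 with B020004J07Rik) to 0.989 (Gm8300 with AF067061), with a median of 0.951 over 45 pairs.

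Promoters were read for the members that have an entry in the RefSeq promoter table of GRCm38.p6, which were 4 of 10: Zfp352, AF067061, Ubtfl1 and Tdpoz4. The 250 bases before the annotated start are printed for the first 3, since they differ in the repeats they hold. Capitals mark TAATCC, the core letters that OTX-type homeodomain proteins recognise, and, on either strand, the letters TATAAG, which resemble a core promoter element. Both motifs were picked after these sequences had been seen.
Zfp352, chr4:90218570-90218819, plus strand: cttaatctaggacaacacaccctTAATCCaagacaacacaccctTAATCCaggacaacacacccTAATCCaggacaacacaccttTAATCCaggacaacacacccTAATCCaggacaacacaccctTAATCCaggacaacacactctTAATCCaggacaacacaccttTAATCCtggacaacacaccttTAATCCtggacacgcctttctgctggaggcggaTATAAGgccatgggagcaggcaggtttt
AF067061, chr13:120262845-120263094, plus strand: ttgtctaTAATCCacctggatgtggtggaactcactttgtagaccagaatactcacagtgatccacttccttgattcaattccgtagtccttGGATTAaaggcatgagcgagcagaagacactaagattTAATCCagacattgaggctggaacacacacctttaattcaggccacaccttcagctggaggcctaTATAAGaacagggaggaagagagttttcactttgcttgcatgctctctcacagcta
Ubtfl1, chr9:18404168-18404417, plus strand: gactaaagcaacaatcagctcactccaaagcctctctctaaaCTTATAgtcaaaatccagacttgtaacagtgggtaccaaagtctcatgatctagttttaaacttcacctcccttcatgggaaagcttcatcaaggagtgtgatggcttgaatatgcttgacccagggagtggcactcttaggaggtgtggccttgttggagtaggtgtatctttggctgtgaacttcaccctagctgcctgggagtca
The Zfp352 promoter held 9 copies of TAATCC, all on the plus strand and 20 to 21 bases apart, from 227 to 61 bases before the start. At least 1 copy occurred in 6.3% of 32851 promoters of the same length, and 9 or more in this one alone (0.003%). AF067061 held 3 copies, which 8 promoters (0.024%) reached, and Ubtfl1 and Tdpoz4 held none. TATAAG stood 28 bases before the start in Zfp352 and 56 before it in AF067061, whose start in GENCODE lies 19 bases further on. It stood on the minus strand 208 bases before the start in Ubtfl1, and 6.6% of promoters held it. TATAAA (12.4% of promoters) and TGCACAC, the letters of the ZSCAN4 motif (3.7%), were found in none of the 4 windows on either strand. Nor was the DUX motif, which 0.1% of promoters held. The 4 windows held 0 to 2 CpG, against a median of 6 over all promoters, and 29.0% of promoters held 2 or fewer. Any part of these motifs in the changes of the members was not tested.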

How the data were processed

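Polyadenylated RNA of 8 libraries, 2 for each of 4 genotypes, had been prepared with a reverse-stranded TruSeq protocol, per the labels' protocols. Counts per gene, as whole numbers without normalization, are what the authors deposited, from reads aligned with STAR 2.4.2a to mm10 (GRCm38) per the submitters' processing notes. No source used here gives the counting tool, the annotation release, or how strand and reads that match several genes were handled. Of the count columns, 0 were left unused.

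Of 47643 identifiers, 47224 were matched to a symbol of GENCODE M21 without the version. The filterByExpr filter by genotype (minimum count 10) left 16388 genes, which were scaled by TMM; CPM use these scaled library sizes. One mean per genotype was fitted over all 8 libraries with edgeR 4.0.16 (R 4.3.3, limma 3.58.1), and 6 comparisons were tested with its quasi-likelihood F test, adjusted by Benjamini-Hochberg over all genes tested and called at an adjusted p under 0.05. SEs come from the same test. A group without counts was given a floor of 3 counts, and groups of 1 to 3 counts an exact 95% binomial interval. A fit without 1 library assumes that the lone sample varies like the other groups. DESeq2 1.42.0, limma-voom, other scalings and filters, a GC offset and a replicate block were tried beside it. The steps were tested on simulated data.

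Sequences shared between genes were found in exons of GENCODE M21 in windows of 50 bases on the same strand. Coding sequences were aligned with blastn 2.17.0. The members and lists were chosen with earlier results of these data known. Named were the 10 members, up to 4 other 2-cell genes in each comparison, regulators, relatives and neighbours of members, and the 5 most similar genes for each unique member; motifs and markers of other cell types named singly were picked after their values were seen.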

Additional observations from a re-analysis of the deposited data

Results flagged for a closer look

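Of the regulators of the 2-cell state called between knockouts, 3 had both libraries of one knockout above and both of the other below the WT libraries (edgeR's quasi-likelihood test of the difference, adjusted over all genes). Between Drosha KO and Dgcr8 KO 3 of the 20 regulators tested were called, where 15.4% of all genes were. Between Ago1_2 KO and Dgcr8 KO 3 were called higher and 2 lower, where 17.1% of all genes were called. The share of all genes on opposite sides of WT was not computed, so these 3 are a description only. Lin28a was lower in Drosha KO than in Dgcr8 KO by a log2 fold change of -6.92 (SE 0.54, adjusted p = 0.000278) and in Ago1_2 KO than in Dgcr8 KO by -5.76 (SE 0.49, adjusted p = 0.000344). Its levels were 19.5 and 26.1 CPM in WT, with Dgcr8 KO at 64.5 and 66.0, Drosha KO at 0.965 and 0.194 and Ago1_2 KO at 1.47 and 0.823. Ythdc1, a reader of methylated adenosine in RNA, was lower in Drosha KO than in Dgcr8 KO by -1.04 (SE 0.21, adjusted p = 0.0131). Dppa4, the partner of Dppa2, was lower there by -0.74 (SE 0.22) at an adjusted p of 0.05 after rounding, with 63.6 and 71.0 CPM in Dgcr8 KO and 44.0 and 36.9 in Drosha KO. Duxf3, Dppa2, Nelfa and Pcgf6 were also called between Ago1_2 KO and Dgcr8 KO, at log2 fold changes of 4.80, 1.06, 1.0 and -0.70, without lying on opposite sides of WT.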

How the results depend on the processing

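Members called changed as follows against the values above. For Dgcr8 KO against WT (3 called), limma-voom gave 1 and a GC offset 1. For Drosha KO against Dgcr8 KO (4), DESeq2 gave 7, limma-voom 2, no filter on low counts 8 and a fit of only the groups compared 2. For Ago1_2 KO against Drosha KO (1), DESeq2 gave 4, limma-voom 3, no filter 7 and only the groups compared 0. Leaving out 1 library gave 0 to 4 members for Dgcr8 KO, 5 to 8 for Drosha KO and 9 to 10 for Ago1_2 KO against WT, 0 to 5 for Drosha KO against Dgcr8 KO, 5 to 10 for Ago1_2 KO against Dgcr8 KO and 0 to 1 for Ago1_2 KO against Drosha KO. Genes called moved more. For Dgcr8 KO against WT (1136), DESeq2 gave 2282, no filter 3241, only the groups compared 723, the replicate block 2795 and the GC offset 722, and leaving out 1 library 40 to 4245. For Drosha KO against WT (1862) these were 3413 with no filter, 589 with only the groups compared, 2884 with the replicate block and 714 to 4003 without 1 library. For Ago1_2 KO against WT (2887) no filter gave 4431 and leaving out 1 library 556 to 4955. For Drosha KO against Dgcr8 KO (2525) leaving out 1 library gave 320 to 3900. For Ago1_2 KO against Dgcr8 KO (2808) only the groups compared gave 7171 and leaving out 1 library 513 to 4239. For Ago1_2 KO against Drosha KO (120), DESeq2 gave 362, no filter 648, only the groups compared 15 and leaving out 1 library 6 to 176. The cause of these changes was not tested. Ubtfl1 in Dgcr8 KO against WT, never called, reversed to -0.93 without Dgcr8 KO 2 and ranged up to 1.34 (without WT 2).

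Replicate numbers are in the labels, and same-numbered libraries deviated together with correlations of 0.096 to 0.245, all of them positive. One was under 0.1, and the numbers were not taken to pair samples in the main fit. These values do not show that same-numbered libraries share no batch. With the replicate block 3, 8 and 10 members were called against WT (Dgcr8 KO, Drosha KO, Ago1_2 KO), 4 for Drosha KO and 10 for Ago1_2 KO against Dgcr8 KO, and 1 for Ago1_2 KO against Drosha KO. The genes were not all the same: under the block Tdpoz4 (Drosha KO against WT), AF067061 (Drosha KO against Dgcr8 KO) and Gm8300 (Ago1_2 KO against Drosha KO) were lost, and Ubtfl1 and BC080695 took the place of the last pair. Depth limits the WT values: 6 members had 3 counts or fewer there.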
